A study of Mus musculus with 8 samples.

Results

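Cholesterol is built from acetyl-CoA through the mevalonate pathway, and the 8 genes described here are 7 of its enzymes and 1 of its regulators: Hmgcs1, Idi1, Fdps, Fdft1, Sqle, Lss and Cyp51, and Insig1. They were chosen by symbol and stood in all 8 count tables, as 8 of 23282 rows. All 8 passed the filter on low counts, as 8 of 13174 genes tested. Their transcripts were counted by 3' end sequencing of RNA from the gastrocnemius (a muscle of the calf) of C57BL/6 mice, in a study of muscle wasting under a tumour and of a peony extract.

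The 2 RP libraries came from mice that received Lewis lung carcinoma cells, a mouse lung tumour line, under the skin, carried the tumour for 2 weeks, and were then given 100 mg/kg of a Paeonia lactiflora 30% ethanol extract in 200 µl of water by mouth each day for 2 weeks. The 3 Control libraries came from mice with the same tumour cells that were given water alone. The 3 Normal libraries came from mice injected with 100 µl of saline in place of tumour cells and given water. The labels list an age of 4 weeks for the mice, name no transgene, and leave unsaid whether libraries came from separate animals. The p-values then cover only the spread among these libraries, which may be technical. The names and column headers of the tables of all 6 Control and Normal samples carry the other group's name. Directions below are those of the groups as titled. If the table names hold instead, Control against Normal changes sign, RP against Control and RP against Normal trade places, and RP against the mean of Control and Normal keeps its value.

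Libraries held 9528011 to 12333767 counts, of which 1325 to 1787 fell on the 8 genes. Skeletal muscle fibre markers were abundant in every library: Acta1, skeletal actin, stood at 25523 to 30804 CPM (counts scaled to library size, with TMM factors) in the RP and Control libraries and at 17210 to 22154 CPM in the Normal libraries. The fibre markers as a list did not share that direction. For Control against Normal, 3 of the 7 listed had a positive log2 change and 4 a negative one, with a median of -0.046. Blood RNA differed widely: haemoglobin genes took 0.862 and 3.83% of counts in the RP libraries, 1.41 to 1.61% in the Control libraries and 4.57 to 19.7% in the Normal libraries. Differences below were tested with edgeR's quasi-likelihood test on all 8 libraries, with p-values adjusted by Benjamini-Hochberg over all 13174 genes, and a gene was called where its adjusted p was under 0.05.

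In the pathway, 3-hydroxy-3-methylglutaryl-CoA is made from acetyl-CoA units and reduced to mevalonate, mevalonate is turned into isoprenoid units, these are joined into squalene, and squalene is closed into lanosterol and trimmed to cholesterol. When sterol in the endoplasmic reticulum is low, the escort protein Scap carries SREBP2 (encoded by Srebf2) to the Golgi, where it is cut, and the freed fragment enters the nucleus and activates the pathway's genes. Insig proteins hold Scap in place when sterol is plentiful, and Insig1 is itself a target of SREBP. Skeletal muscle makes sterol for its membranes, and myelinating Schwann cells of the nerves that run through it are known for high cholesterol synthesis.

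SREBP2 is known to bind a sterol regulatory element, usually beside boxes for the factors NF-Y and Sp1. RefSeq windows of the GRCm38.p6 build, from 250 bases before to 50 bases after the gene's start, were matched by symbol for 5 of the 8 genes (Hmgcs1, Idi1, Lss, Cyp51 and Insig1). Shown here are the windows of Hmgcs1, at chr13:119690101-119690400 on the plus strand, of Idi1, at chr13:8885356-8885655 on the plus strand, and of Cyp51, at chr5:4104648-4104947 on the minus strand, since these are the genes with a window for which some comparison reached an unadjusted p under 0.05. Each is written 5′ to 3′ along the gene's strand, and capitals mark matches on either strand to TCACCCCAC (a form of the sterol regulatory element), TCACNCCAC, CCAAT (NF-Y), GGGCGG (Sp1) or CACGTG (E-box); the form with N also matches every TCACCCCAC.
Hmgcs1: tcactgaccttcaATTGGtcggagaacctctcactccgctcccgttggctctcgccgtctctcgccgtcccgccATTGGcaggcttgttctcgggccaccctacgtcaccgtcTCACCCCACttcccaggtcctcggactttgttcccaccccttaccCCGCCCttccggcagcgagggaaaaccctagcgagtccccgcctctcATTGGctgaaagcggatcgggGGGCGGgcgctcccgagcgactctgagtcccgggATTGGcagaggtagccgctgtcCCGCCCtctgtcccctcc
Idi1: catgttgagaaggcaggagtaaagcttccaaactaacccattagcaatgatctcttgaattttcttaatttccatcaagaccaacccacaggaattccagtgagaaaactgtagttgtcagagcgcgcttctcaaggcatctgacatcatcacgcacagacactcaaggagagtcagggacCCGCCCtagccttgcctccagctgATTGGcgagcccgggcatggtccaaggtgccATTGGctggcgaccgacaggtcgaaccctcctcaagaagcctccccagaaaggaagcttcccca
Cyp51: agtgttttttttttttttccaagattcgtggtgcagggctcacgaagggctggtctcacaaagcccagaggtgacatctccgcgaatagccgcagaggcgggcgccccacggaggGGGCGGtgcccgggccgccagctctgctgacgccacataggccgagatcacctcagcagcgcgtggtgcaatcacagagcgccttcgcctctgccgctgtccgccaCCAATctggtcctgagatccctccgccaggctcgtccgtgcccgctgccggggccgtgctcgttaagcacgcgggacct
TCACCCCAC was found in the window of Hmgcs1 alone, on the plus strand with its first base 137 bases before the start, and in 0.551% of 32851 windows of all genes. TCACNCCAC matched only at the same place, against 1.24% of all windows. CCAAT and GGGCGG were each present in all 5 windows, against 37.4% and 35.7% of all windows. CACGTG was present in the Insig1 window alone, against 7.15% of all windows. Among 12 other sterol synthesis enzymes with a window, none held either form of the sterol element, 11 held CCAAT, 11 held GGGCGG and 3 held CACGTG. These counts are per gene, and Dhcr7 and Pmvk had more than 1 window each. Per gene, CCAAT was held by 41.1% of all 27025 genes, GGGCGG by 38.2% and CACGTG by 8.09%. TCACCCCAC was held by 0.614% and TCACNCCAC by 1.44%. These are matches of letters and do not show binding.

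Across the 8 genes, no change ran through the whole set. Between Control and Normal libraries, Hmgcs1 was higher and Fdft1 was lower in Control libraries, and the other 6 genes did not pass the test. These 2 calls of 8 stand beside 10.4% of all tested genes called in that comparison. None of the 8 was called for RP against Control, where 0.175% of genes were called, for RP against Normal (2.5% called) or for RP against the mean of Control and Normal (0.106% called). At an unadjusted p under 0.05, 1183 of all tested genes passed for RP against Control, among them Idi1 and Cyp51. In whole-muscle RNA, fewer cells of a type and less RNA per cell cannot be told apart.

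**Figure D1:**
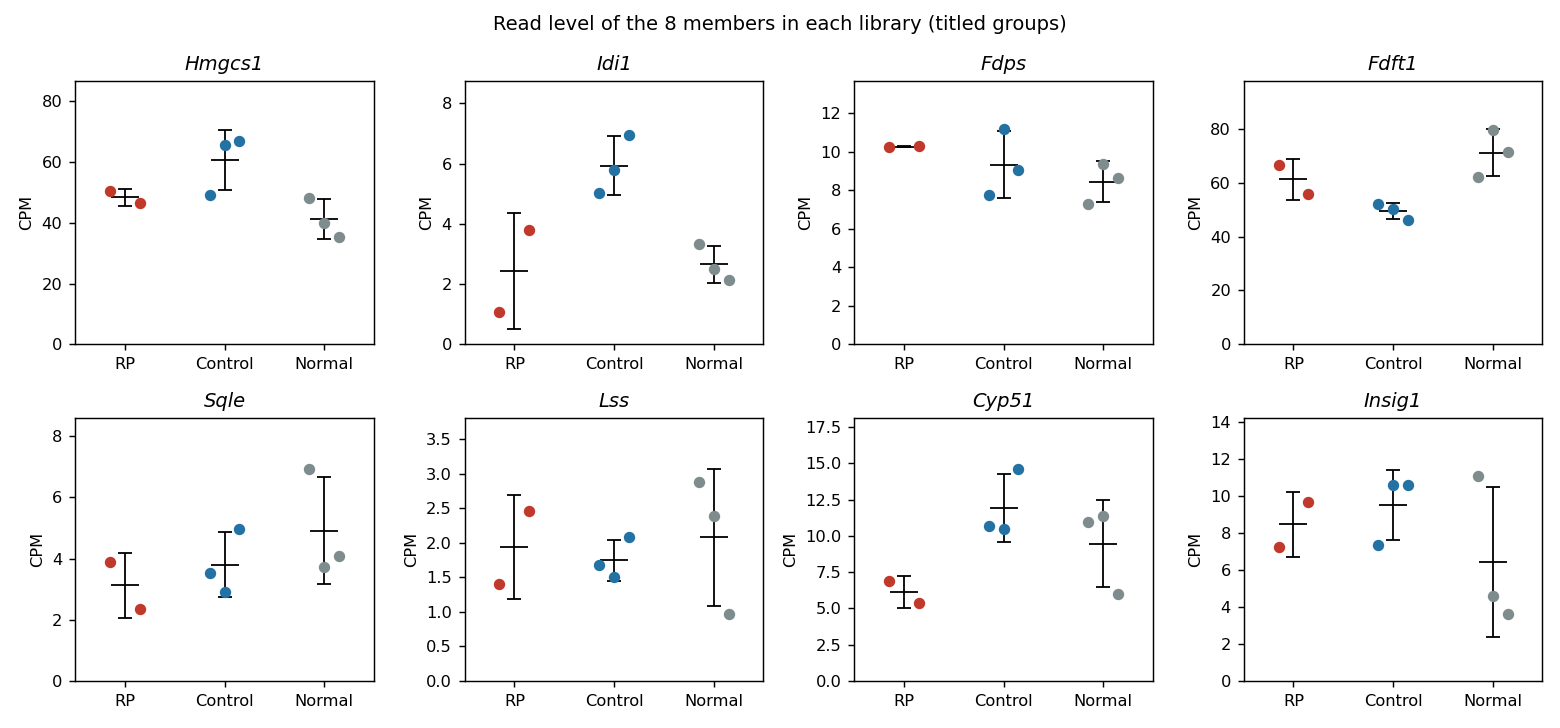
CPM of each of the 8 genes on a linear axis, with 1 point per library for RP (2), Control (3) and Normal (3) as titled; bars are mean and SD. Idi1 lies higher in all 3 Control libraries than in any other library, whereas Fdft1 lies lower in all 3 Control libraries than in any other library.

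Hmgcs1 (chromosome 13, 119690351 to 119708260), the enzyme that makes 3-hydroxy-3-methylglutaryl-CoA, stood at 50.3 and 46.5 CPM in the RP libraries, at 49.2, 65.7 and 66.9 CPM in the Control libraries and at 48.2, 40.0 and 35.3 CPM in the Normal libraries. Control libraries all lay above Normal libraries, but Control 1 and Normal 1 nearly met, and the RP libraries lay around that meeting point. The means were 48.4 ± 2.72 CPM in RP (SD, n = 2), 60.6 ± 9.89 in Control and 41.2 ± 6.53 in Normal (SD, n = 3 each). Hmgcs1 was 1.47-fold higher in Control than in Normal libraries, a log2 change of 0.56 ± 0.165 (SE; 95% interval 0.20 to 0.91, adjusted p = 0.0483 by edgeR). The call was lost when any library other than Control 1 or Normal 1 was left out, with an adjusted p of 0.137 without Normal 2, 0.106 without Normal 3, 0.142 without Control 2, 0.186 without Control 3, 0.0637 without RP 1 and 0.0632 without RP 2. RP libraries overlapped both groups, with a log2 change of -0.32 ± 0.185 (SE; adjusted p = 0.650) against Control and of 0.23 ± 0.184 (SE; adjusted p = 0.561) against Normal.

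Idi1 (chromosome 13, 8885606 to 8892396), which turns isopentenyl diphosphate into the isomer that starts isoprenoid chains, stood at 1.08 and 3.80 CPM in the RP libraries, at 5.03, 5.80 and 6.96 CPM in the Control libraries and at 3.33, 2.49 and 2.14 CPM in the Normal libraries. Every Control library lay above every RP and Normal library, and the RP libraries lay on either side of the 3 Normal libraries. Idi1 had 10 to 77 counts per library. Its log2 change for Control against Normal was 1.15 ± 0.393 (SE; 95% interval 0.31 to 2.00, adjusted p = 0.0802), which missed the threshold. It passed without RP 1 (adjusted p = 0.0330) or without RP 2 (adjusted p = 0.0370) at an almost equal change. For RP against Control the log2 change was -1.27 ± 0.458 (SE; 95% interval -2.26 to -0.28, unadjusted for the number of genes), with an adjusted p of 0.404. That value was -0.64 without RP 1 and -2.45 without RP 2. For RP against Normal it was -0.11 ± 0.468 (SE; adjusted p = 0.937).

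Fdps (chromosome 3, 89093588 to 89101967), which joins isoprenoid units into farnesyl diphosphate, was not called in any comparison. It stood at 10.2 and 10.3 CPM in the RP libraries, at 7.76, 11.2 and 9.04 CPM in the Control libraries and at 7.29, 9.38 and 8.64 CPM in the Normal libraries. The RP libraries lay above all Normal libraries and within the Control range. RP against Normal had a log2 change of 0.28 ± 0.239 (adjusted p = 0.594, ± SE), RP against Control 0.14 ± 0.238 (adjusted p = 0.908) and Control against Normal 0.14 ± 0.214 (adjusted p = 0.723). The 95% interval for Control against Normal ran from -0.32 to 0.61. The last 300 bases of Fdps are shared at 92.4 to 100% identity with Gm43738 and 5 processed pseudogenes, and short reads cannot be told apart where these sequences match. Idi1 shares 284 bases of its 3' end with the processed pseudogene Gm13502 at 100% identity.

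Fdft1 (chromosome 14, 63145150 to 63181687), squalene synthase, commits farnesyl diphosphate to sterol. It stood at 66.8 and 55.8 CPM in the RP libraries, at 52.3, 50.3 and 46.4 CPM in the Control libraries and at 62.3, 79.7 and 71.6 CPM in the Normal libraries. Control libraries lay below all others, and the RP and Normal libraries overlapped. Means were 61.3 ± 7.77 CPM in RP (SD, n = 2), 49.7 ± 3.01 in Control and 71.2 ± 8.75 in Normal (SD, n = 3 each). Fdft1 fell in Control to 0.697 times its Normal level, a log2 change of -0.52 ± 0.145 (SE; 95% interval -0.83 to -0.21, adjusted p = 0.0375 by edgeR). The adjusted p was 0.136 without Normal 2, 0.107 without Control 1, 0.118 without Control 2 and 0.157 without Control 3, so each of these libraries was needed for the call. RP libraries lay above Control libraries without overlap, at a log2 change of 0.30 ± 0.162 (SE; adjusted p = 0.613), and for RP against Normal it was -0.22 ± 0.163 (SE; adjusted p = 0.540).

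The 3' end of Fdft1 lies within Ctsb, the gene of the protease cathepsin B, on the opposite strand, and the strand counted is not stated in the sources used here. Ctsb stood at 223.8 and 252.0 CPM in the RP libraries, at 226.6, 218.8 and 249.7 CPM in the Control libraries and at 239.2, 236.8 and 195.3 CPM in the Normal libraries. Its log2 change was 0.05 ± 0.143 (SE; adjusted p = 0.865) for Control against Normal, beside -0.52 for Fdft1.

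Sqle (chromosome 15, 59315092 to 59331193), squalene epoxidase, adds the oxygen needed for ring closure. It stood at 3.88 and 2.36 CPM in the RP libraries, at 3.53, 2.90 and 4.97 CPM in the Control libraries and at 6.93, 3.73 and 4.08 CPM in the Normal libraries. All 3 groups overlapped, with Normal 1 the highest and RP 2 the lowest of the 8 libraries. The largest of its differences was -0.66 ± 0.406 on the log2 scale (SE; adjusted p = 0.444) for RP against Normal.

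Lss (chromosome 10, 76531565 to 76557139), lanosterol synthase, closes the sterol rings. It had 10 to 32 counts per library, at 1.40 and 2.47 CPM in RP, 1.68, 1.50 and 2.08 CPM in Control and 2.88, 2.39 and 0.971 CPM in Normal libraries. The groups overlapped, and the Normal libraries held both the highest and the lowest value. Its 95% interval for Control against Normal, from -1.27 to 0.77 on the log2 scale, was wide in both directions, so changes of either sign remain compatible with these libraries.

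Cyp51 (chromosome 5, 4080674 to 4104697), which removes a methyl group from lanosterol, had its lowest mean in RP. It stood at 6.90 and 5.35 CPM in the RP libraries, at 10.7, 10.5 and 14.6 CPM in the Control libraries and at 11.0, 11.4 and 6.02 CPM in the Normal libraries. Normal 3 lay between the RP libraries, and the other 5 libraries lay above them. The log2 change for RP against Control was -0.96 ± 0.308 (SE; 95% interval -1.63 to -0.30, unadjusted for the number of genes), with an adjusted p of 0.334 by edgeR. Against Normal it was -0.63 ± 0.309 (SE; adjusted p = 0.318), and against the mean of Control and Normal -0.80 ± 0.282 (SE; adjusted p = 0.402). Akap9, an anchoring protein gene on the opposite strand, covers 166 bases of the Cyp51 3' end. The log2 change of Akap9 was 0.37 ± 0.18 (SE; adjusted p = 0.572) for RP against Control, beside -0.96 for Cyp51.

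Insig1 (chromosome 5, 28071412 to 28078662), the sterol-dependent brake on SREBP2, stood at 7.22 and 9.67 CPM in the RP libraries, at 7.32, 10.6 and 10.6 CPM in the Control libraries and at 11.1, 4.59 and 3.59 CPM in the Normal libraries. The groups overlapped, since Normal 1 was the highest of all 8 libraries while Normal 3 and Normal 2 were the lowest. The log2 change for Control against Normal was 0.56 ± 0.357 (SE; adjusted p = 0.351). Without Normal 1 it was 1.21 ± 0.283 (SE; adjusted p = 0.0139), so the side of the threshold rested on that library. The value for RP against Control was -0.17 ± 0.397 (SE; adjusted p = 0.943).

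**Figure D2:**
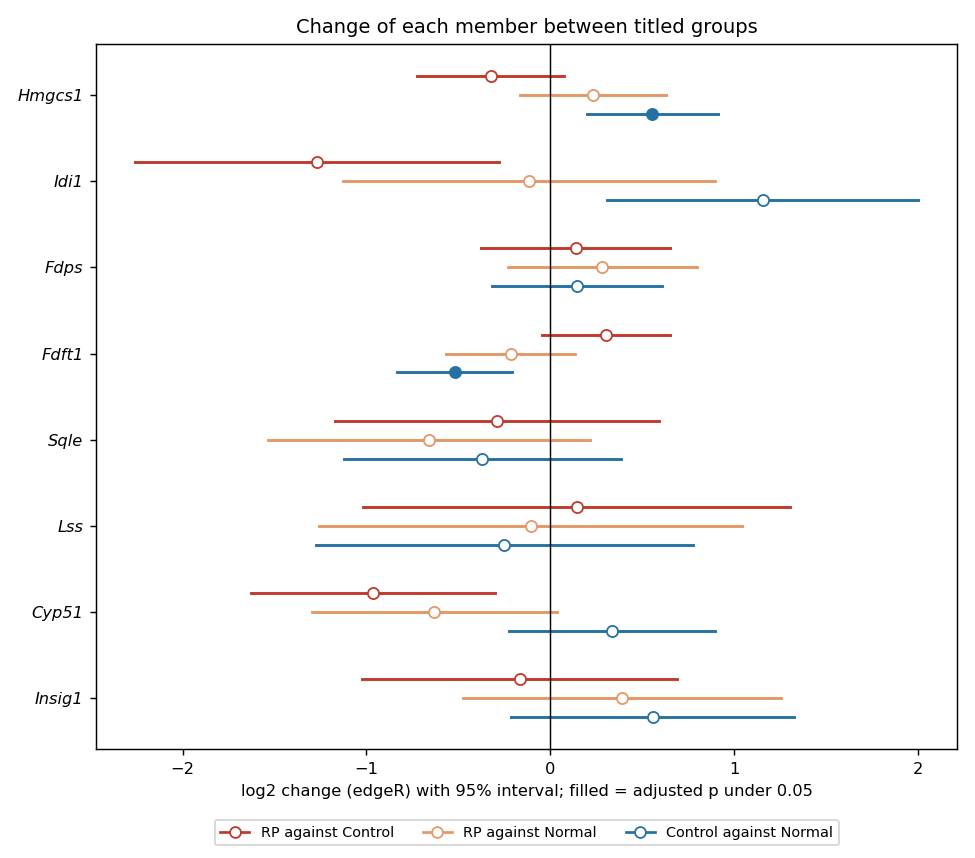
Log2 change with its 95% interval for each of the 8 genes in 3 comparisons of titled groups; filled points passed an adjusted p of 0.05. The filled points are Hmgcs1, at 0.56, and Fdft1, at -0.52, both for Control against Normal.

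Counted over the set, 3 of the 8 genes had groups that did not overlap for Control against Normal (Hmgcs1, Idi1 and Fdft1), beside 31.3% of all tested genes. For RP against Control the 3 were Idi1, Fdft1 and Cyp51, beside 31.7% of all genes. For RP against Normal it was Fdps alone, beside 30.8%. None separated RP from all 6 other libraries, beside 8.6% of all genes. These shares are near the background or below it. The median log2 change of the 8 genes was 0.24 for Control against Normal, against 0.00043 for all tested genes, and -0.23 for RP against Control, against -0.0038 for all. Both comparisons use the same Control libraries. For RP against Normal the median was -0.11, against -0.037 for all tested genes. For RP against the mean of Control and Normal, beside Cyp51 at -0.80, Idi1 had a log2 change of -0.69 ± 0.422 (adjusted p = 0.671, ± SE), and the other 6 genes lay between -0.47 (Sqle) and 0.21 (Fdps).

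The 8 genes did not vary together across libraries. Across the 8 libraries, which differ in group and in blood content, the log2 CPM of Hmgcs1 and Insig1 had a Pearson r of 0.82 and that of Hmgcs1 and Idi1 0.62, whereas Hmgcs1 and Fdft1 had -0.84 and Idi1 and Fdft1 -0.81. Of the 28 pairs of the 8 genes, 17 had a positive r and 11 a negative one, with a median of 0.11. The mean profile of the 8 genes, as log2 CPM centred on each gene, was -0.24 and -0.06 in the RP libraries, 0.01, 0.16 and 0.34 in the Control libraries and 0.24, -0.04 and -0.41 in the Normal libraries. The Normal libraries alone thus spanned a wider range than the RP and Control libraries together.

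Of 9732 other genes with a mean of at least 5 CPM, the 5 closest to that profile were Iqck (r = 0.975, n = 8 libraries), Ssr1, a subunit of the translocon-associated complex (0.968), Pck1, cytosolic phosphoenolpyruvate carboxykinase (0.968), Cdk14, a cyclin-dependent kinase (0.961), and Tpsb2, a mast cell tryptase (0.959). Pck1 stood at 11.4 and 11.5 CPM in the RP libraries, at 19.0, 32.0 and 40.8 CPM in the Control libraries and at 39.9, 19.1 and 6.99 CPM in the Normal libraries, and it is also one of the adipocyte markers below. Likeness over 8 libraries picked from so many genes is given as a description.

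The other enzymes of the pathway filled in the steps between the 8. Of 14 listed, 13 were tested, and Tm7sf2, a sterol reductase, had too few counts. None was called in any comparison. For Control against Normal, 10 of the 13 had a positive log2 change, with a median of 0.37. For RP against Control, 12 of the 13 had a negative one, with a median of -0.31, beside 50.5% of all tested genes below zero. That lean was absent for RP against Normal, where 6 of the 13 were negative, with a median of 0.09, beside 53.8% of all genes. For RP against the mean of Control and Normal, 7 of the 13 were negative, with a median of -0.04, beside 52.7% of all genes.

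Msmo1, which oxidises the methyl groups left on the ring, stood at 10.8 and 7.30 CPM in RP, 13.5, 15.4 and 13.7 CPM in Control and 15.5, 13.7 and 11.6 CPM in Normal libraries, with a log2 change of -0.65 ± 0.232 for RP against Control (SE; adjusted p = 0.397). Both RP libraries thus lay below all 6 others for Msmo1. Dhcr7, the reductase before cholesterol, was at -0.34 ± 0.408 on the log2 scale (SE; adjusted p = 0.857). Mvd, the decarboxylase before Idi1, was the 1 enzyme of the 13 above zero, at 0.42 ± 0.288 (SE; adjusted p = 0.722). For Control against Normal, Pmvk, phosphomevalonate kinase, and Nsdhl, a sterol dehydrogenase, came nearest to the threshold, at 0.67 ± 0.204 (SE; adjusted p = 0.0529) and 0.96 ± 0.299 (SE; adjusted p = 0.0589). These last 2 were picked after their values were seen. The 3' end of Mvd lies in Gm20388 on the opposite strand, from which its counts may not be separate.

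**Figure D3:**
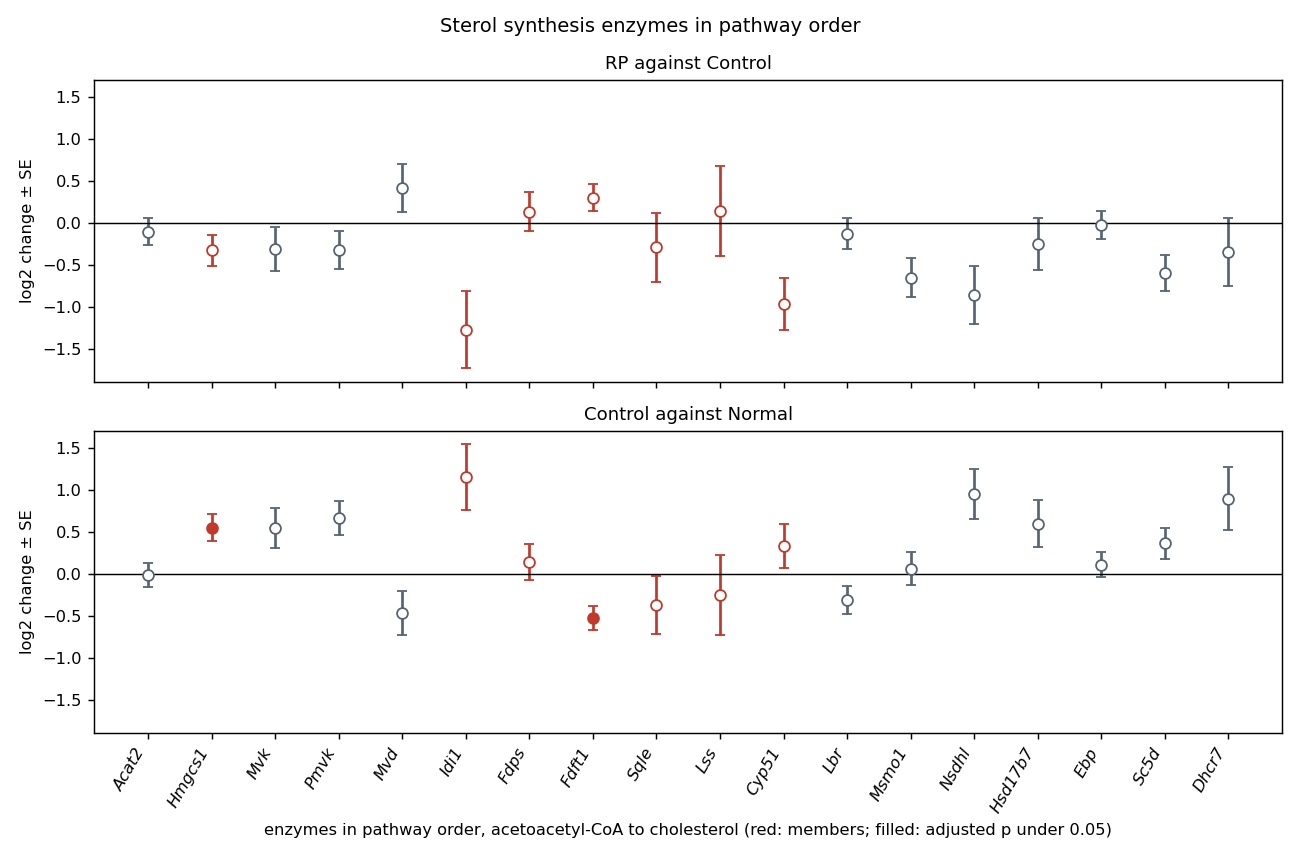
Log2 change with its SE for 18 of the sterol synthesis enzymes tested, in pathway order from acetoacetyl-CoA to cholesterol, for RP against Control (upper panel) and Control against Normal (lower panel); red marks the enzymes of the 8-gene set and filled points passed an adjusted p of 0.05. In the upper panel Idi1, at -1.27, and Cyp51, at -0.96, are lowest; both panels use the same Control libraries.

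None of 13 regulators of the pathway was called in any comparison. Srebf2, which encodes SREBP2, stood at 2.91 and 2.57 CPM in RP, 4.94, 2.70 and 3.25 CPM in Control and 4.95, 7.56 and 4.08 CPM in Normal libraries. RP and Control libraries overlapped, and RP libraries lay below all Normal libraries, with a log2 change of -1.01 ± 0.395 (SE; adjusted p = 0.206) for RP against Normal. Scap and Insig2, the escort and the second Insig, had log2 changes of -0.08 ± 0.178 and -0.06 ± 0.147 (SE; adjusted p = 0.814 and 0.848) for Control against Normal. Srebf1, which encodes the lipogenic SREBP1 and whose 3' end overlaps Rai1 on the opposite strand, was at 0.33 ± 0.161 (SE; adjusted p = 0.208) in that comparison.

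Of 9 genes listed under SREBP2 targets in sterol uptake and transport, 7 were tested, and 2 were called, both lower in Control than in Normal libraries. Of these 2, Lpin1 is not itself a gene of sterol uptake or transport. Npc1, which exports cholesterol from lysosomes, stood at 78.1 and 64.5 CPM in RP, 44.2, 42.2 and 43.5 CPM in Control and 128.7, 97.0 and 104.5 CPM in Normal libraries, with 3 groups that did not overlap. Its log2 change for Control against Normal was -1.35 ± 0.151 (SE; adjusted p = 1.37e-04). Npc1 overlaps 3110002H16Rik on the opposite strand, which changed by -1.30 ± 0.178 (SE; adjusted p = 6.65e-04), and without a stated strand their reads cannot be told apart. Lpin1, a phosphatidate phosphatase, fell in Control by 1.04 ± 0.174 on the log2 scale (SE; adjusted p = 0.00253). With log2 Hba-a1, a haemoglobin gene, as a covariate its log2 change was -0.65 ± 0.258 and not called (SE; adjusted p = 0.184). Hba-a1 stood at 5229 to 6716 CPM in Control and at 14878 to 81503 CPM in Normal libraries, without overlap. In this comparison, a fit with that covariate cannot tell blood content and group apart. None of the 7 was called for RP against Control or RP against Normal.

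Genes of the liver X receptors, which sense oxysterols and drive cholesterol export, had 6 tested of 7 listed. Nr1h3, encoding LXR alpha, was lower in Control than in Normal libraries by a log2 change of -0.62 ± 0.153 (SE; adjusted p = 0.0216) and was the 1 gene called in the list. Its call was lost without Normal 2 (adjusted p = 0.0817), Control 1 (0.101), Control 2 (0.102) or Control 3 (0.056), and with the Hba-a1 covariate (-0.49, adjusted p = 0.306). Abca1, a cholesterol exporter, had -0.55 ± 0.21 (SE; adjusted p = 0.117). Of 13 genes of the isoprenoid branches (ubiquinone, dolichol and prenyl transfer) and 8 tested genes of sterol esters and oxysterols, none was called in any comparison.

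Among 13 tested genes of fatty acid synthesis, driven mainly by SREBP1, 2 rose in Control against Normal libraries. Fasn, fatty acid synthase, stood at 43.3 and 36.3 CPM in RP, 65.2, 55.1 and 90.3 CPM in Control and 23.8, 19.9 and 25.2 CPM in Normal libraries. The 3 groups did not overlap, and the log2 change for Control against Normal was 1.61 ± 0.191 (SE; adjusted p = 2.16e-04). Elovl6, a fatty acid elongase, was the other, at 1.02 ± 0.297 (SE; adjusted p = 0.0452), and Scd1, a desaturase, had 1.61 ± 0.527 (SE; adjusted p = 0.0705). The call of Elovl6 was lost without Normal 2 (adjusted p = 0.119), Normal 3 (0.0925), Control 1 (0.0753), Control 2 (0.0947) or Control 3 (0.199), with a replicate block (0.0691), and with the Hba-a1 covariate, where the log2 change was 0.42 ± 0.498 (SE; adjusted p = 0.681). None of the 13 was called for RP against Control, where 11 had a negative log2 change, with a median of -0.40. Fasn had -0.82 ± 0.211 (SE; adjusted p = 0.204) there. For RP against Normal, 6 of the 13 had a negative log2 change, with a median of 0.01 and none called. The 3' end of Elovl6 is shared with the processed pseudogene Gm11295 at 96.3% identity.

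Some lists of markers of other cells, but not all, held genes called between these groups. The 12 Schwann cell markers summed to 514 and 282 CPM in RP, 770, 1485 and 1335 CPM in Control and 598, 827 and 737 CPM in Normal libraries. All 12 had a negative log2 change for RP against Control, with a median of -1.10, and Mal, a myelin proteolipid, was called at -1.67 ± 0.279 (SE; adjusted p = 0.0375). For Control against Normal, 11 of the 12 were positive, with a median of 0.52. The call of Mal was lost without Normal 2, Control 2, Control 3 or RP 2 (adjusted p = 0.0775 to 0.201) and without RP 1 (0.126), and also by limma-voom (0.0971), on genes averaging 5 CPM or more (0.0624) and with a replicate block (0.0544). No Schwann cell marker was at 0 in any library.

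The 10 adipocyte markers summed to 2518 and 3157 CPM in RP, 3037 to 3926 CPM in Control and 2922 to 4622 CPM in Normal libraries. Of the 10, 9 were negative for RP against Control, with a median of -0.77 and none called. The 8 neutrophil markers summed to 39.3 and 503.5 CPM in RP, 14.7 to 27.7 CPM in Control and 957 to 1969 CPM in Normal libraries, and 7 of 8 were called lower in Control than in Normal. Ltf was at 0 in all 3 Control libraries and in RP 1. All 8 had a positive log2 change for RP against Control, with a median of 4.31, and S100a8 (4.53 ± 0.769 SE, adjusted p = 0.0403) and S100a9 (4.36 ± 0.768 SE, adjusted p = 0.0434), subunits of calprotectin, were called. Without RP 2 they were at 1.53 (adjusted p = 0.289) and 1.28 (adjusted p = 0.428). Leaving out Normal 2 or any Control library also ended both calls, at an adjusted p of 0.0825 to 0.245, with log2 changes of 4.10 to 4.99. The 7 erythroid markers found were all called lower in Control than in Normal, with a median log2 change of -3.60. The 8 cholesterol genes summed to 147.9 and 136.2 CPM in RP, 137.5, 158.5 and 161.5 CPM in Control and 153.0, 153.7 and 132.4 CPM in Normal libraries, a sum in which Hmgcs1 and Fdft1 outweigh the other 6 genes and move in opposite directions (r = -0.84). The part of these cells in the changes of the 8 genes was not tested. With log2 Hba-a1 as a covariate, the Control against Normal change of Hmgcs1 was 0.25 ± 0.254 (SE; adjusted p = 0.631) and that of Fdft1 -0.53 ± 0.243 (SE; adjusted p = 0.245). Since Hba-a1 levels did not overlap between Control and Normal libraries, that fit cannot tell blood content and group apart.

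**Figure D4:**
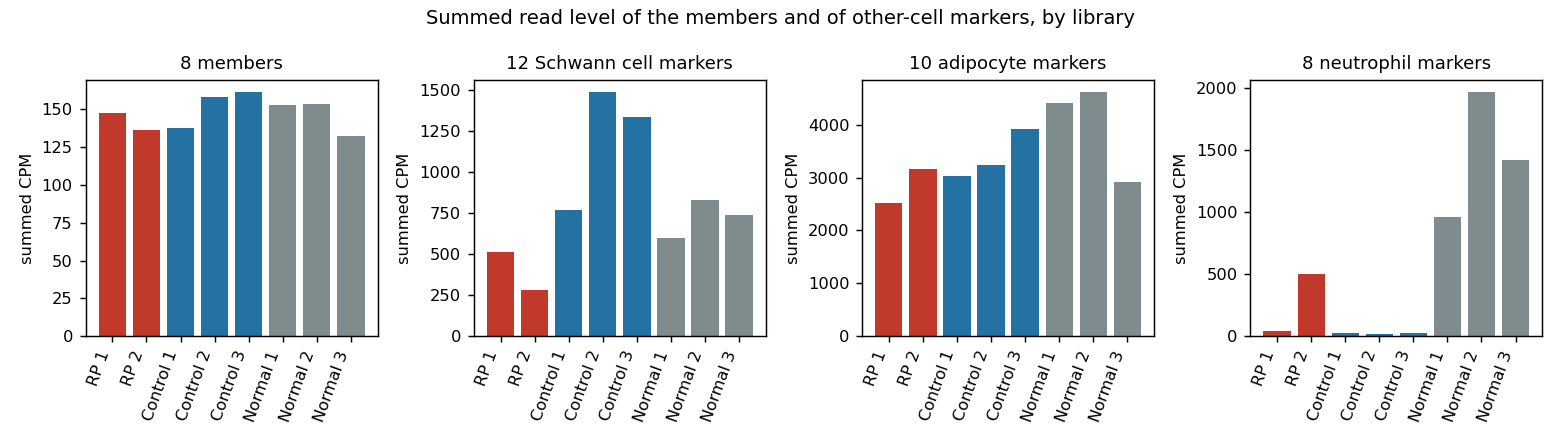
Summed CPM per library, on axes from 0, of the 8 cholesterol genes and of 3 sets of cell type markers, with RP, Control and Normal libraries as titled. The sums of the cholesterol genes, made up mostly of Hmgcs1 and Fdft1, which ran in opposite directions, lie between 132.4 and 161.5 CPM, and those of the Schwann cell markers run from 282 CPM in RP 2 to 1485 CPM in Control 2.

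Other marker lists were counted in the same way. For Control against Normal, 1 of 7 muscle fibre markers was called higher, 1 of 7 endothelial markers lower, 5 of 8 fibroblast and tenocyte markers higher and none of 8 macrophage markers. For RP against Control none of these 4 lists had a called gene, and all 7 muscle fibre markers had a positive log2 change, with a median of 0.20.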

How the data were processed

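Gene expression was measured in 8 libraries of gastrocnemius RNA (500 ng each) made with the Lexogen QuantSeq 3' kit, 1 deposited table per library. The authors deposited raw read counts per gene symbol, without normalization. Bowtie2, edgeR and mm10 are named in the submitters' processing notes without versions, and the counting tool, annotation and strand are not given in the sources used here. Libraries were grouped by title: 2 RP, 3 Control and 3 Normal. Of 23282 rows, 5430 had no count and 13174 passed filterByExpr. Rows of the 35 symbols listed more than once were kept apart. Low-count genes have the least precise values.

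The quasi-likelihood test of edgeR 4.0.16 (in R 4.3.3) was run with TMM scaling on the 8 libraries together, at a common biological coefficient of variation of 0.195. It was 2-sided, its p-values were adjusted by Benjamini-Hochberg over 13174 genes, and the threshold was 0.05. The 95% intervals are not adjusted for the number of genes. Correlations used log2 CPM with a prior count of 2. The 8 genes, the 7 other pathway lists and the 8 marker lists were chosen with earlier results of these data known. Named genes were the 8 genes, up to 4 called genes per list and comparison with the smallest adjusted p, and 13 fixed genes such as Srebf2 and Scap, and only those that bear on the text are named. Results for some genes of these lists are not reported here. No library differed from another of its group by less than sampling noise. Other settings tried were DESeq2 1.42.0, limma-voom (limma 3.58.1), upper-quartile and RLE scaling, and tests without the filter or on genes averaging 5 CPM or more. Further settings were only the groups compared, a replicate block, haemoglobin genes and the Rn45s row removed together, and log2 Hba-a1 as a covariate. A threshold of 0.1 and leaving out each library were also tried. With 1 RP library removed, the remaining one was taken to be as variable as the other groups' libraries. Only the edgeR test was checked on simulated counts, for Control against Normal, RP against Control and RP against Normal. Positions came from RefSeq (GRCm38.p6), and overlaps and shared 3' ends from mm10 gene models with blastn 2.17.0 (the last 300 bases, at least 50 aligned bases at 90% identity). Figures were drawn with matplotlib 3.10.9.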

Additional observations from a re-analysis of the deposited data

How the results depend on the processing

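For Control against Normal, 2 of the 8 genes were called. The count was 1 under RLE normalization, upper-quartile normalization and limma-voom, and 0 to 3 when 1 Control or Normal library was left out. It was 0 with log2 Hba-a1 as a covariate or with a replicate block (Hmgcs1 0.56, adjusted p = 0.0747, and Fdft1 -0.52, adjusted p = 0.0663). At a threshold of 0.1, with no filter and by DESeq2 it was 3, with Idi1 added. With only the groups compared it stayed at 2, but Idi1 (adjusted p = 0.0332) took the place of Hmgcs1 (adjusted p = 0.0610). Same-numbered Control and Normal libraries had correlations of deviations from their group means of -0.07, -0.02 and -0.04. Same-numbered RP libraries had -0.07 and -0.06 with Control and 0.05 and 0.08 with Normal libraries. These small values do not settle whether replicate numbers pair the samples. Hmgcs1 stayed above zero (0.25 to 0.69) and passed in 7 of 18 alternatives, Fdft1 stayed below (-0.61 to -0.43) and passed in 11 of 18, and Idi1 (1.02 to 1.49) passed in 5 of 17. No alternative called any of the 8 genes in the comparisons with RP. No called change reversed. For Control against Normal, the Hba-a1 covariate cannot be told apart from the group difference, because its levels did not overlap between these groups.

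Over all genes, Control against Normal had 1376 calls, 2201 at a threshold of 0.1, 382 with the Hba-a1 covariate and 608 to 1858 with 1 library left out; upper-quartile normalization had the same total but 761 higher and 615 lower, against 658 and 718. RP against Control had 23 calls, 51 at 0.1, 204 with no filter, 11 at a mean CPM of at least 5, 112 by DESeq2, 10 by limma-voom, 121 with only the groups compared and 8 to 72 with 1 library left out. RP against Normal had 330, 710 at 0.1, 718 with no filter, 663 by DESeq2, 100 with only the groups compared, 104 with Hba-a1 and 57 to 670 with 1 library left out. RP against the mean of both had 14, 39 at 0.1, 163 with no filter, 9 at a mean CPM of at least 5, 117 by DESeq2, 9 with the replicate block, 8 with Hba-a1 and 0 to 100 with 1 library left out. The cause of these shifts was not tested. Idi1 and Lss had 10 counts in their lowest library and also varied within groups, and the share of counting error in their spread was not tested.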
